A study of Homo sapiens with 21 samples.

Results

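BJ cells, a human skin fibroblast line with a limited number of divisions, were compared at 2 points in the middle of their lifespan in culture: passage 24 (P24) against passage 11 (P11). Each passage was represented by 3 poly(A)-selected RNA libraries, so 6 of the 21 libraries of the study enter the comparison. The other libraries came from cells at passages P3, P30 and P33, and from P11 cells treated with 50 ng/ml of DOX (which the title of the series spells out as doxorubicin) or with the solvent DMSO. The labels call the extracted molecule genomic DNA, while their protocol describes poly(A) RNA, and the gene counts are read as RNA here. They name no genetic change and no treatment for the passage libraries, and they give the cells no age beyond the passage number. They do not say whether replicates were separate cultures. The p-values therefore rest on the spread among replicates alone, and that spread may be technical. It was estimated over all 15 passage libraries, P3, P30 and P33 included, and not from the 6 of P11 and P24 only. Of the 61544 genes of the count table, 15642 passed a filter on low counts over the 15 passage libraries (about 0.528 CPM, the read count scaled to a common library size, in at least 3 of them) and are the genes described here. The other 45902 were not tested. Just inside the filter were IL22RA1 and TMEM269, with 0.52805 CPM in the library that set their place, and just outside were ZMYND10 and the gene ENSG00000287820, at 0.52668 CPM.

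Normal fibroblasts divide a limited number of times and then enter replicative senescence, a lasting arrest. The arrest is known for loss of E2F-driven replication and mitosis genes, high levels of cyclin-dependent kinase inhibitors such as p21 (CDKN1A) and p16 (CDKN2A), loss of lamin B1, and a secreted mix of proteases, cytokines and growth factors. In tissue, fibroblasts build and remodel the collagen matrix, and they attach to it through integrins. In pooled RNA, fewer cells in a state and less RNA per cell in that state cannot be told apart.

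The libraries held 15001155 to 18993681 counted reads at P11 and 16912452 to 21866995 at P24. On the first principal component of the passage libraries, which carried 49.75% of the variance, P11 lay between -35.11 and -33.55 and P24 between -0.88 and 1.12, so the groups stood well apart and the replicates close together. Mitochondrial genes took 4.419 to 5.598% of reads at P11 and 4.481 to 5.102% at P24, and long noncoding genes 1.46 to 1.635% and 1.549 to 1.652%. The DOX and DMSO libraries were counted in another way from the passage libraries: of 9429 genes that lie inside another gene on the same strand, 0 had a read at any passage and 3950 had one with DOX or DMSO. They were therefore fitted apart, and their levels are not set beside those of P11 or P24. A tested gene can lose reads to an overlapping gene of its own strand, or take reads from it. This holds for 4989 genes, and many of those named here are marked as uncertain. VAT1L, BAALC, LINC01411, SLC38A11, ENPP2, POLD3, RB1, GLB1, HMGB1 and GDF15 have such an overlap too and carry no mark below. A gene without a mark is therefore not always free of overlap. Levels below are CPM on library sizes scaled by the trimmed mean of M-values, given as mean ± SD of 3 libraries. Fold changes are log2 of P24 over P11 with their standard error (SE), from edgeR's quasi-likelihood test. A gene is said to rise or fall where its p-value, adjusted by Benjamini-Hochberg over all 15642 genes, was under 0.05.

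At P24, 3050 genes had risen (19.5% of those tested) and 2989 had fallen (19.1%), 6039 in all (38.6%). The counts of list members below are to be read beside these shares. Most of these changes were small. The median fold of the genes that passed was 1.3, and 4168 of them (69%) differed by less than 1.5-fold. Large changes went mostly upward: 661 genes rose at least 2-fold (4.23% of those tested) and 259 fell at least 2-fold (1.66%). The groups' libraries did not overlap for 7506 genes (48% of those tested). Among protein-coding genes 2615 rose and 2756 fell of 12684, with a median log2 fold change of -0.01. Among long noncoding genes 366 rose and 164 fell of 2284, with a median of 0.11.

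**Figure D1:**
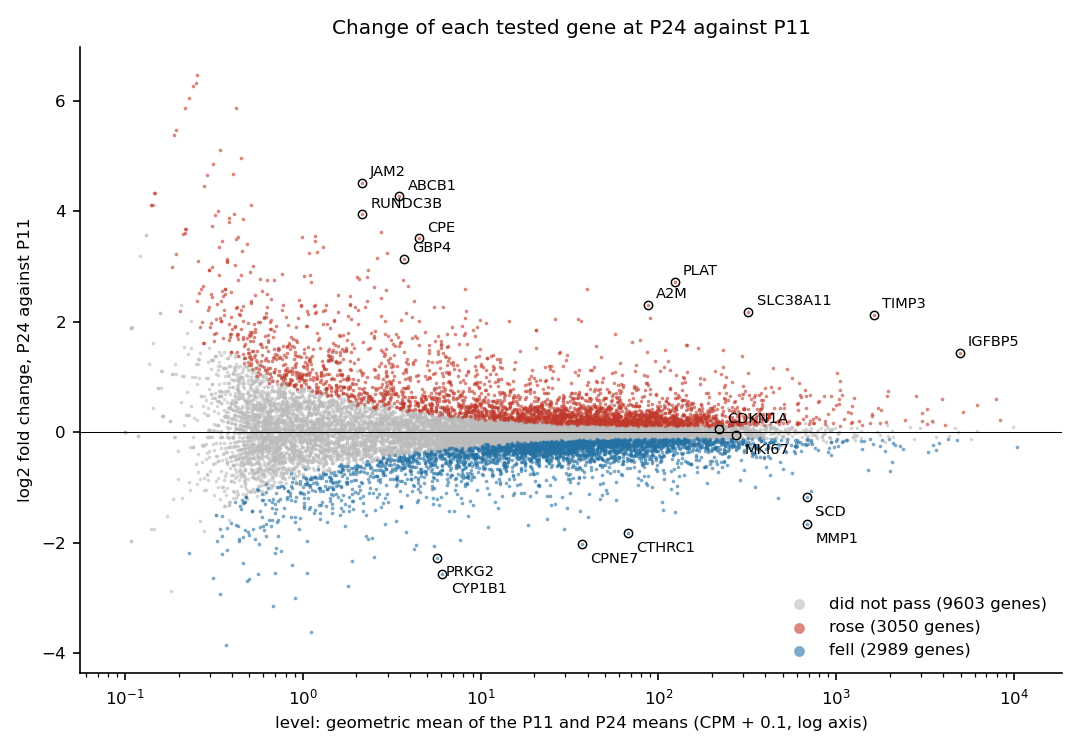
Each point is 1 of the 15642 tested genes: its log2 fold change at P24 against P11 (vertical) against its level (horizontal, log axis, geometric mean of the 2 group means after adding 0.1 CPM). Red genes rose (3050), blue genes fell (2989) and grey genes did not pass; named genes are circled, with ABCB1 and JAM2 more than 4 units up and MKI67 and CDKN1A near 0.

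Among protein-coding genes that reached 5 CPM in the higher group, the largest rises were of genes near the detection limit at P11. JAM2, a junctional adhesion molecule (chr21:25639258-25717562, plus strand, coordinates of the deposited table on GRCh38.p13), held 0.269, 0.407 and 0.523 CPM in the P11 libraries and 7.99, 9.80 and 9.44 CPM in the P24 libraries. The lowest P24 library thus lay far above the highest P11 library, and the log2 fold change was 4.51 ± 0.29 (SE; adjusted p = 3.2e-12). Pseudogenes lie inside JAM2 on its own strand, so its count is uncertain in part.

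ABCB1, which encodes the drug efflux pump P-glycoprotein (chr7:87503017-87713323, minus strand), held 0.645, 0.916 and 0.653 CPM at P11 and 13.8, 14.4 and 15.1 CPM at P24, a 19.2-fold rise with no overlap (log2 4.27 ± 0.16 SE; adjusted p = 8.0e-17). RUNDC3B overlaps ABCB1 on the opposite strand (chr7:87627548-87832296) and rose with it, from 0.501 ± 0.19 to 7.58 ± 0.58 CPM (SD, n = 3 each), 15.4-fold. No source used here states the strand setting, but the passage counts behave as strand-aware. Of 11533 genes nested only in an opposite-strand gene, 4665 had reads, against 0 of the 9429 nested on the same strand. The counts of ABCB1 and RUNDC3B were therefore read as separate. Genes nearby were looked up after these values were seen. ABCB4, a phospholipid transporter next to ABCB1, rose from 7.24 ± 0.22 to 12.8 ± 1.1 CPM, and ADAM22, a receptor of the ADAM family on the far side of RUNDC3B, from 1.28 ± 0.26 to 4.58 ± 0.14 CPM. Of the genes between RUNDC3B and ADAM22, SLC25A40 was at 17.8 ± 1.3 and 17.5 ± 0.72 CPM and did not pass, and DBF4 fell from 19.9 ± 1.6 to 16.7 ± 0.71 CPM. Of 31 ABC transporter genes tested, 7 rose and 6 fell (median log2 0.08), and 18 did not pass. These counts are near the 19.5% and 19.1% over all genes tested. ABCA9 showed the steepest fall of the family, from 4.95 ± 0.60 to 1.56 ± 0.35 CPM, and ABCA3, with a same-strand overlap, rose from 1.42 ± 0.12 to 2.99 ± 0.18 CPM.

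CPE, a carboxypeptidase that trims peptide hormones, rose from 1.27 ± 0.18 to 14.6 ± 1.0 CPM. GNA14, a G-protein alpha subunit, rose from 0.926 ± 0.15 to 8.59 ± 2.2 CPM, and GJA5, a gap junction connexin, from 0.815 ± 0.24 to 7.39 ± 1.2 CPM. GBP4, an interferon-inducible guanylate-binding protein, held 1.13, 1.27 and 1.18 CPM at P11 and 11.6, 8.32 and 11.8 CPM at P24. DYNC1I1, HPSE2 and ZNF704 completed the 10 largest rises, by 7.03-, 7.03- and 6.81-fold. All 10 had P24 libraries above every P11 library, as the rule that named them required. CPE, GNA14, HPSE2 and ZNF704 hold small RNA genes or pseudogenes on their own strand.

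Under the same 5 CPM rule, the largest fall was of CYP1B1, a cytochrome P450 induced through the aryl hydrocarbon receptor (chr2:38066973-38109902, minus strand). It held 16.2, 12.3 and 14.8 CPM at P11 and 2.31, 2.85 and 2.19 CPM at P24, a 5.90-fold fall with every P24 library under every P11 library (log2 -2.56 ± 0.15 SE; adjusted p = 3.1e-13). An antisense gene of a neighbour shares its strand there, so the count is uncertain in part. PRKG2, a cGMP-dependent kinase, fell 4.82-fold, VAT1L 4.8-fold and TSPOAP1 4.18-fold. CPNE7, a calcium-dependent membrane-binding copine, fell from 74.6 ± 3.0 to 18.3 ± 0.51 CPM, and FABP3, a fatty acid carrier, from 54.0 ± 4.3 to 16 ± 2.9 CPM. BAALC, OLFML1, CTHRC1 and NPTX1, the last a neuronal pentraxin, fell 4.12-, 3.84-, 3.55- and 3.5-fold.

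Among long noncoding genes, PURPL stood at 18.6, 17.5 and 18.9 CPM at P11 and 77.0, 72.2 and 71.8 CPM at P24, a 4.03-fold rise. ENSG00000286481 rose from 0.723 ± 0.061 to 9.09 ± 0.65 CPM and LINC01411 from 0.770 ± 0.47 to 6.19 ± 0.28 CPM. TMC3-AS1, ZFPM2-AS1 and GDNF-AS1 fell the most, by 2.54-, 2.5- and 2.28-fold, and all of them share their strand or their locus with other genes.

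Genes of at least 100 CPM showed large changes as well. TIMP3, an inhibitor of matrix metalloproteinases (chr22:32801705-32863041, plus strand), held 776, 808 and 754 CPM at P11 and 3278, 3231 and 3706 CPM at P24, a 4.37-fold rise (log2 2.13 ± 0.06 SE; adjusted p = 7.0e-19). SYN3, a gene on the opposite strand that spans TIMP3, had 19 reads in the P11 libraries and 146 in the P24 libraries, against 41829 and 195706 for TIMP3, and rose from 0.348 ± 0.077 to 2.60 ± 0.52 CPM. PLAT, tissue plasminogen activator (chr8:42174718-42207709, minus strand), held 46.8, 51.4 and 45.6 CPM at P11 and 299, 295 and 356 CPM at P24, a 6.60-fold rise (log2 2.72 ± 0.07 SE; adjusted p = 2.0e-20). For both TIMP3 and PLAT the gap between the groups was many times the spread within them. A2M, a protease trap, rose from 39.0 ± 2.4 to 193 ± 3.4 CPM, SLC38A11, an amino acid transporter family member, from 150 ± 15 to 681 ± 35 CPM, and RDH10, a retinol dehydrogenase, from 43.9 ± 0.81 to 183 ± 7.3 CPM. In the other direction, MMP1, interstitial collagenase, held 1140, 1278 and 1247 CPM at P11 and 352, 382 and 427 CPM at P24, a 3.16-fold fall. CTHRC1, a secreted collagen-repeat protein, held 136, 121 and 123 CPM at P11 and 37.5, 38.9 and 30.9 CPM at P24. MME, the cell-surface peptidase neprilysin, fell from 1392 ± 47 to 502 ± 22 CPM, ENPP2, autotaxin, from 204 ± 3.2 to 75.1 ± 0.79 CPM, and FST, the activin antagonist follistatin, from 173 ± 6.1 to 65.4 ± 2.4 CPM.

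**Figure D2:**
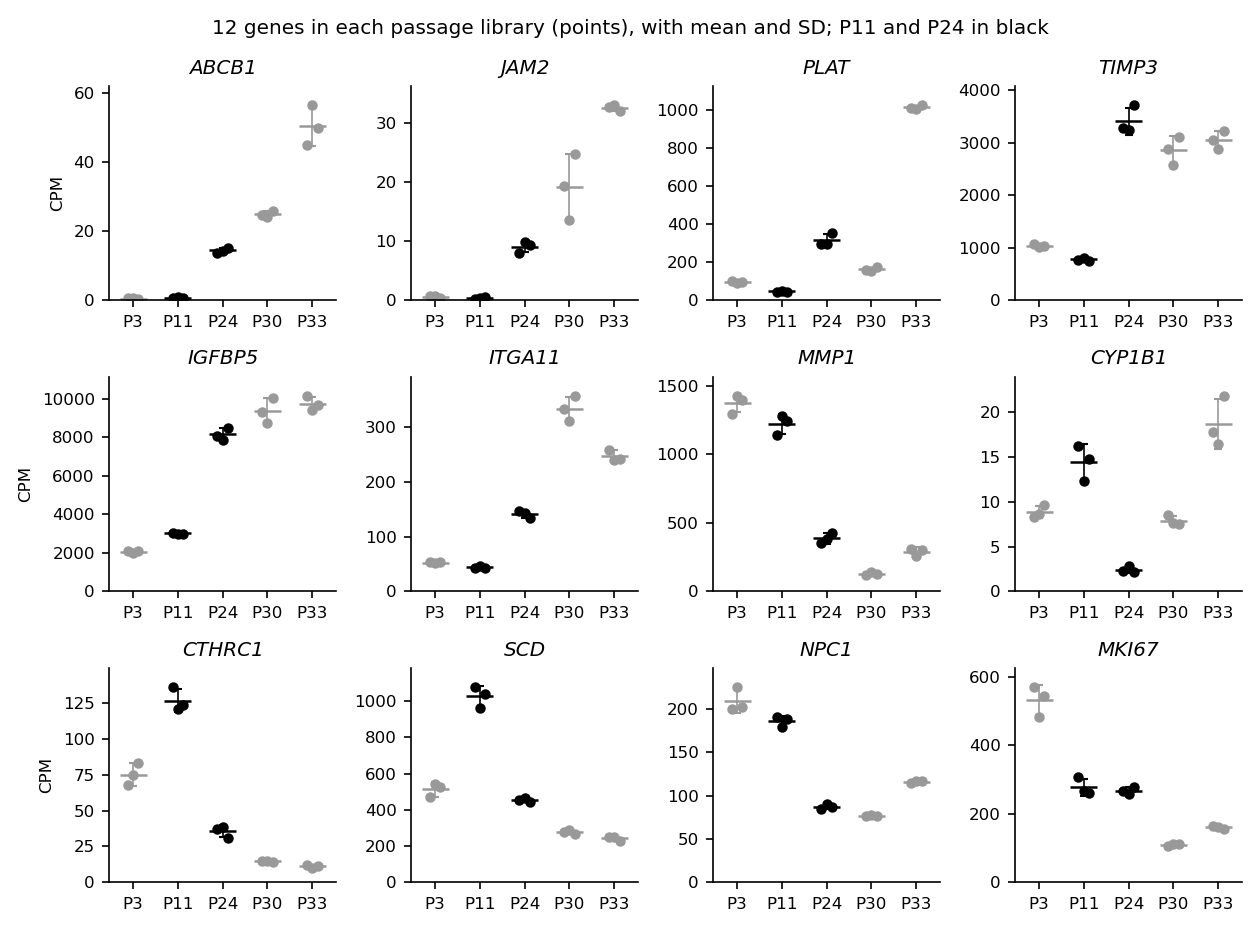
CPM of 12 genes in each of the 15 passage libraries (points; line, mean; bar, SD of 3), with P11 and P24 in black and the other passages in grey, each panel on its own linear axis from 0. ABCB1 and JAM2 leave the baseline at P24, CYP1B1 is lowest at P24, and MKI67 holds about the same level at P11 and P24.

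Cell cycle genes changed by small amounts in this interval. MKI67, the proliferation antigen Ki-67, held 306, 267 and 260 CPM at P11 and 266, 257 and 278 CPM at P24, overlapping values with a log2 fold change of -0.06 ± 0.06 SE (adjusted p = 0.49). CDKN1A, which encodes the cell cycle inhibitor p21, held 205, 224 and 215 CPM at P11 and 214, 222 and 235 CPM at P24, again overlapping (log2 0.06 ± 0.05 SE; adjusted p = 0.32). CDKN2A, which encodes p16, was at 12.3 ± 1.5 and 11 ± 1.1 CPM and did not pass (adjusted p = 0.28). Neither did CDKN2B, CDKN1C, GLB1, HMGB1, GDF15 or CXCL8.

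Of the 16 genes of a core senescence panel, 2 rose and 4 fell. Over all genes tested 19.5% rose and 19.1% fell, so with 16 genes these counts do not set the panel apart. The smaller of the rises was of RB1, at 0.13 ± 0.05 (adjusted p = 0.045), a call that was lost without P11 replicate 3 (adjusted p = 0.23), P24 replicate 2 (0.11) or P24 replicate 3 (0.16). The falls were of LMNB1, lamin B1, from 41.5 ± 4.2 to 34.5 ± 1.7 CPM, HMGB2, a chromatin protein, from 92.7 ± 13 to 69.6 ± 3.7 CPM, CDKN1B, the inhibitor p27, from 66.9 ± 3.3 to 57.3 ± 4.8 CPM, and IL6. CDKN1B lost its call without P24 replicate 3 (adjusted p = 0.057). IL6, an inflammatory cytokine of the senescent secretome, went down, with 4.52, 4.94 and 7.12 CPM at P11 and 2.07, 1.81 and 2.55 CPM at P24.

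Genes of the S phase list, which copy DNA, and of the G2 and M phase list, which drive mitosis, shifted downward by small amounts. Of 42 S phase genes tested, 21 fell and 0 rose, with a median log2 fold change of -0.24, beside -0.003 over all genes tested. In the G2 and M phase list, 53 genes were tested, and 25 fell while 2 rose, with a median of -0.14. Leaving out genes with a same-strand overlap left 13 S phase genes that fell. The largest falls were of BLM, a DNA helicase, from 7.09 ± 0.39 to 4.02 ± 0.32 CPM, POLD3, a polymerase delta subunit, from 28.9 ± 0.59 to 20.5 ± 2.8 CPM, and CLSPN, claspin, from 37.5 ± 2.7 to 26.9 ± 2.0 CPM. In mitosis they were of AURKB, a chromosomal passenger kinase, from 14.5 ± 2.1 to 9.87 ± 0.31 CPM, CENPF, a kinetochore protein, from 191 ± 18 to 139 ± 3.8 CPM, and CDC25C, an activator of CDK1. CDC25C moved from 4.58 ± 0.48 to 3.33 ± 0.55 CPM and lost its call without P11 replicate 1, P11 replicate 3, P24 replicate 1 or P24 replicate 3 (adjusted p 0.053 to 0.15). The 2 rises, named after their values were seen, were of the mitotic kinase AURKA (45.6 ± 3.0 to 61.9 ± 2.1 CPM) and of JPT1 (59.5 ± 5.5 to 69.6 ± 3.5 CPM), the second with same-strand overlaps.

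Library by library, the median log2 level of the G2 and M phase genes relative to P11 was 0.06, 0.10 and -0.15 in the P11 libraries and -0.13, -0.15 and -0.15 in the P24 libraries. P11 replicate 3 therefore lay within the P24 range, and without it 30 members fell. For the S phase genes the P11 libraries (0.01, 0.07 and -0.07) stayed above the P24 libraries (-0.21, -0.21 and -0.25).

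The intervals before and after moved the G2 and M phase genes more. They share the P11 or the P24 libraries with the comparison here, so the values are given side by side. From P3 to P11, 45 of the 53 fell (27.8% of all genes tested fell) and 2 rose, with a median of -0.57. From P24 to P30, 48 fell (20.7% of all genes fell) and 1 rose, with a median of -0.79. A test of the difference between the next interval and this one called 40 members more negative in the next and 1 more positive, against 18.3% and 14.6% of all genes. For the S phase genes the same test called 15 more negative and 1 more positive. Their medians were -0.18 from P3 to P11, -0.24 from P11 to P24 and -0.54 from P24 to P30. The mean of MKI67 ran 531, 278, 267, 110 and 161 CPM over P3, P11, P24, P30 and P33, so the interval from P11 to P24 was a plateau between 2 falls.

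**Figure D3:**
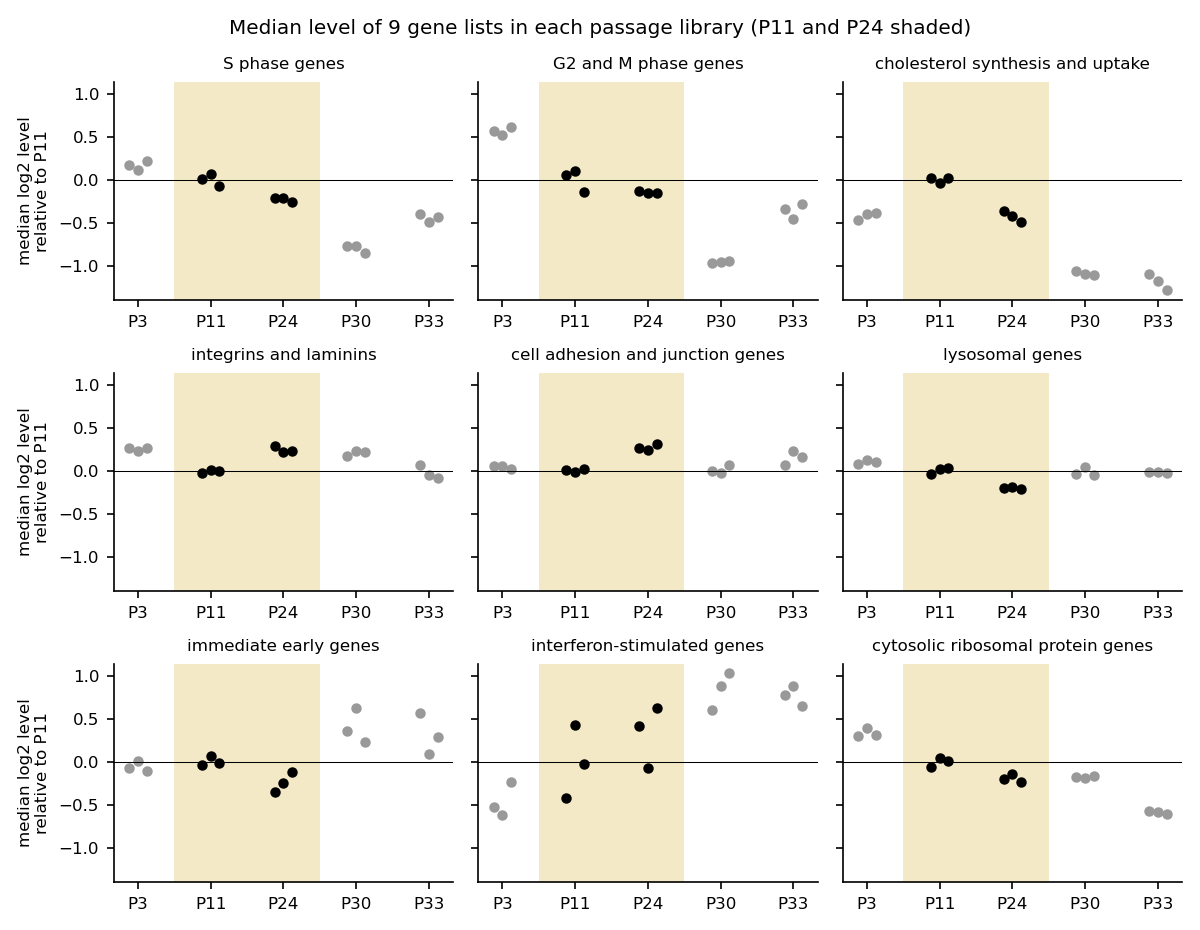
Median log2 level over the members of 9 gene lists in each passage library, relative to the mean of P11 (0.5 CPM added before the log), with P11 and P24 shaded. The G2 and M phase genes run from -0.15 to 0.10 at P11 and near -0.15 at P24, well above their P30 values, while the interferon-stimulated genes spread widely within P11 and within P24.

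Contact genes rose in the same interval. Integrins are the paired receptors by which cells hold the matrix, and laminins are basement membrane proteins that some of them bind. Of 28 such genes tested, 17 rose and 3 fell, with a median log2 fold change of 0.27. ITGA11, the alpha 11 chain that binds fibrillar collagen (chr15:68296532-68432163, minus strand), held 43.1, 46.2 and 43.2 CPM at P11 and 147, 143 and 134 CPM at P24, with no overlap (log2 1.67 ± 0.06 SE; adjusted p = 1.2e-17). ITGA2, the alpha 2 collagen-binding chain, held 78.3, 90.1 and 79.2 CPM at P11 and 227, 216 and 293 CPM at P24. ITGA8, an RGD-binding chain, rose from 6.73 ± 1.7 to 17.2 ± 1.1 CPM. Named after their values were seen, the remaining collagen-binding chains ITGA1 (70.7 ± 2.7 to 84.2 ± 5.6 CPM, with a same-strand overlap) and ITGA10 (2.81 ± 0.55 to 5.44 ± 0.07 CPM) also rose, as did ITGB1, their common beta 1 partner (3218 ± 46 to 3724 ± 45 CPM). From P24 to P30, 4 members rose and 14 fell (19.5% and 20.7% of all genes tested), with a median of -0.18. ITGA11 kept rising, to 334, 311 and 356 CPM at P30. The test of the difference called 18 members more negative and 2 more positive, against 18.3% and 14.6% of all genes. That test shares the P24 libraries with the comparison here, and it also calls a member more negative where it only rose less. From P3 to P11, 17 had fallen and 2 had risen. 

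Of 38 cell adhesion and junction genes tested, 21 rose and 8 fell, with a median of 0.35. Restricting the test to genes that reach 10 CPM left 12 that rose, and leaving out same-strand overlaps left 11. PCDH1, a protocadherin, had 2 reads in all 3 P11 libraries together and 77 in the P24 libraries (1.30, 1.64 and 1.14 CPM). CNTN1, a contactin, rose from 0.235 ± 0.092 to 2.85 ± 0.44 CPM, and JAM2 is described above. CDH2, N-cadherin, the main cadherin of fibroblasts, held 82.1, 88.4 and 80.7 CPM at P11 and 243, 251 and 253 CPM at P24, a 2.97-fold rise, again with a gene on its own strand. The difference from the next interval was negative for 21 of the 38 and positive for 5, against 18.3% and 14.6% of all genes. It shares the P24 libraries with the comparison here, and it is also negative where a member only rose less.

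Matrix genes rose more often than they fell. Of 31 collagen genes tested, 16 rose and 7 fell (median 0.21), or 10 and 4 without same-strand overlaps. The basement membrane chains COL4A4 and COL4A3 showed the largest rises, from 0.676 ± 0.057 to 2.80 ± 0.73 CPM and from 0.153 ± 0.048 to 0.579 ± 0.068 CPM. The fibrillar collagens COL1A1, COL1A2 and COL3A1 rose from 5186 ± 185 to 7336 ± 177, from 6463 ± 130 to 9802 ± 504 and from 803 ± 34 to 1358 ± 34 CPM, each with no overlap between the groups. COL21A1, a minor fibril-associated collagen, fell the most, from 2.22 ± 0.74 to 0.811 ± 0.075 CPM. The 7 falls became 4 without P11 replicate 3 or without P24 replicate 3. Of 49 elastic fibre, proteoglycan and matricellular genes, 27 rose and 16 fell (median 0.18). Among them, LOXL4, a lysyl oxidase that cross-links collagen, rose from 138 ± 4.3 to 388 ± 15 CPM, the glypican GPC4 from 1.83 ± 0.29 to 4.22 ± 0.62 CPM and FMOD, fibromodulin, from 6.75 ± 0.48 to 15.3 ± 0.04 CPM.

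The hyaluronan list, which covers synthesis, binding and breakdown of that polymer, moved in both directions, with 3 rises and 2 falls of 14. CEMIP, which degrades hyaluronan, rose from 1018 ± 42 to 1553 ± 57 CPM, and VCAN, the binding proteoglycan versican, fell from 82.8 ± 4.5 to 53 ± 0.86 CPM. TNFAIP6, which moves heavy chains onto hyaluronan, was at 2.48 ± 0.41 and 3.51 ± 0.51 CPM and lost its call without P11 replicate 1, P11 replicate 2 or P24 replicate 3 (adjusted p 0.056 to 0.10).

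Of 28 myofibroblast and TGF-beta response genes, which mark contractile fibroblasts, 18 rose and 1 fell, with a median of 0.22. ITGA11, CDH2 and COMP led. COMP, cartilage oligomeric matrix protein, rose from 3.66 ± 0.20 to 9.95 ± 0.95 CPM. ACTA2, the smooth muscle actin that defines the myofibroblast, was at 42.4 ± 2.1 and 41.8 ± 1.8 CPM and did not pass (adjusted p = 0.81; named after its value was seen). CNN1, the actin-binding calponin, rose from 28.5 ± 2.0 to 62.5 ± 4.8 CPM. From P3 to P11 the list had gone down, with 1 rise and 18 falls and a median of -0.22.

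**Figure D4:**
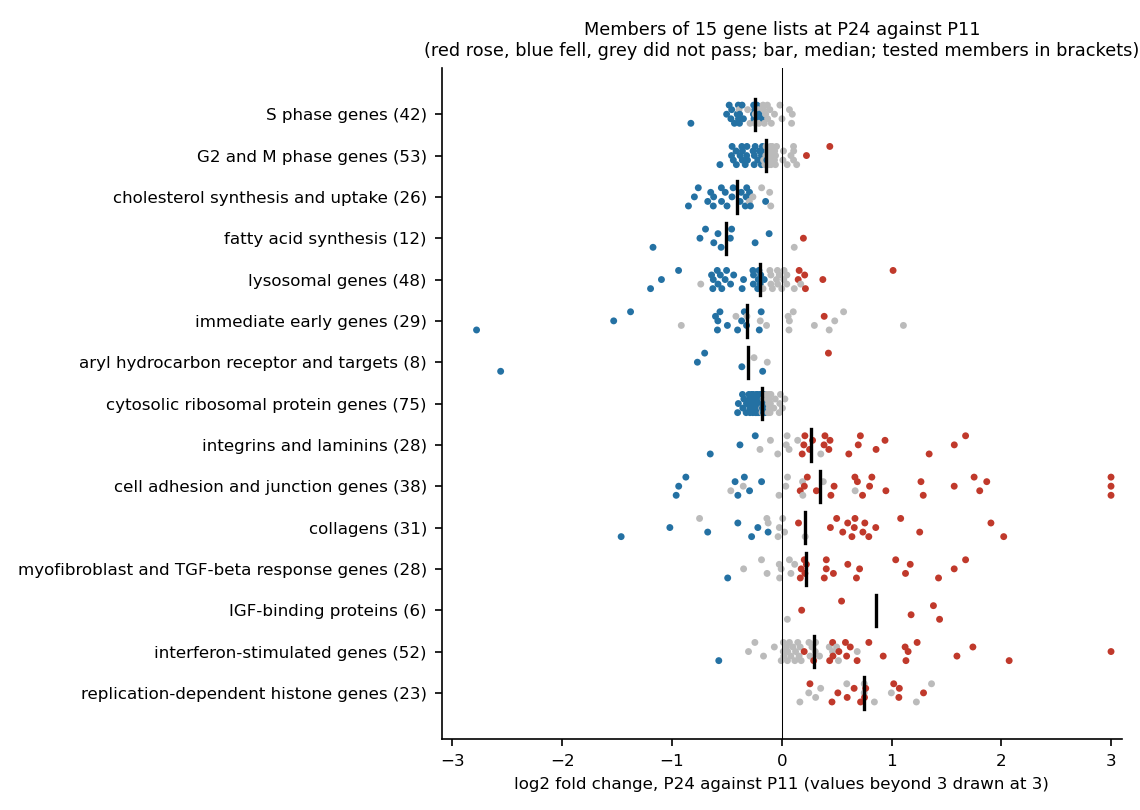
Log2 fold change at P24 against P11 of each tested member of 15 gene lists (points; red rose, blue fell, grey did not pass) with the list's median as a bar; 4 members beyond the axis are drawn at its limit. The sterol, fatty acid, lysosomal, immediate early and ribosomal protein lists lie mostly below 0, and the integrin, adhesion, matrix, IGF-binding protein and histone lists mostly above it.

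Sterol synthesis genes fell together. The cell makes cholesterol from acetyl-CoA through a chain of enzymes whose genes are switched on by SREBF2 when sterols are scarce. Of 26 cholesterol synthesis and uptake genes tested, 21 fell and 0 rose, with a median log2 fold change of -0.41. Leaving out any 1 library left 20 or 21 that fell. MVD, mevalonate diphosphate decarboxylase, held 25.3, 26.4 and 25.2 CPM at P11 and 15.8, 15 and 14.7 CPM at P24, a 1.69-fold fall with no overlap (log2 -0.76 ± 0.08 SE; adjusted p = 1.4e-08). ACAT2, which makes acetoacetyl-CoA, held 113, 108 and 108 CPM at P11 and 63.7, 67.7 and 58.4 CPM at P24, in a locus shared with SOD2 and TCP1 on the opposite strand. TM7SF2, a sterol reductase with a same-strand overlap, fell from 4.17 ± 0.89 to 2.33 ± 0.09 CPM. The sterol list had gone the other way from P3 to P11, with 21 rises (24.6% of all genes rose) and 2 falls and a median of 0.43. From P24 to P30, 0 rose and 22 fell, with a median of -0.61. P11 was thus the highest of the 5 passages for this list, and P24 lay near P3.

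Most promoters of the sterol genes that fell share a sequence feature. The genes were chosen because they fell, and sterol genes that did not fall were not counted. A CCAAT box, the letters CCAAT on either strand, was present in the 250 bases before the RefSeq start of 15 of the 16 sterol genes that fell and have an entry in the promoter table. The share was 34.7% over the 11032 tested genes with an entry, and 33% over all 27305 promoters. Among all tested genes it was 32.5% for those that rose and 36.3% for those that fell, so holders of the box in general moved both ways. Below are 60-base stretches, on the gene's own strand and on GRCh38.p14, of the 6 largest falls that could be shown without touching an annotated exon. RefSeq places the start of DHCR7 inside the gene as the deposited table gives it, so its stretch lies within that span. Capitals mark the box, which reads ATTGG where it lies on the other strand. None of the other searched motifs overlaps the capitals, and the letters GCGTG or CACGC, named below, occur elsewhere in the stretches of MVD, LSS, STARD4 and DHCR7.
MVD (chr16:88663219-88663278, minus strand): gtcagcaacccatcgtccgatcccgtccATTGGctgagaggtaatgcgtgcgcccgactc
FDPS (chr1:155308662-155308721, plus strand): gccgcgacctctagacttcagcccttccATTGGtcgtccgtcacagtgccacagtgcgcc
LSS (chr21:46228893-46228952, minus strand): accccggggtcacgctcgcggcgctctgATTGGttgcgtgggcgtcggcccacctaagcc
HSD17B7 (chr1:162790622-162790681, plus strand): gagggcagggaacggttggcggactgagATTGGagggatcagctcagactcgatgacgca
STARD4 (chr5:111512665-111512724, minus strand): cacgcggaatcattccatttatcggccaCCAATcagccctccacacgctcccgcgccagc
DHCR7 (chr11:71448456-71448515, minus strand): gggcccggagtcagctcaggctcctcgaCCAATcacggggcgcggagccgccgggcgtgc

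These genes encode farnesyl diphosphate synthase (FDPS), lanosterol synthase (LSS), a sterol keto-reductase (HSD17B7), a sterol carrier (STARD4) and the last reductase of cholesterol synthesis (DHCR7). FDPS fell from 252 ± 9.4 to 161 ± 13 CPM, LSS from 103 ± 4.4 to 66.5 ± 5.3 CPM, HSD17B7 from 11 ± 0.85 to 7.09 ± 0.51 CPM, STARD4 from 101 ± 1.7 to 69.2 ± 4.6 CPM and DHCR7 from 64.6 ± 4.0 to 44.2 ± 2.2 CPM. The CCAAT box was also found before 15 of 21 G2 and M phase genes and 12 of 16 S phase genes that fell. Among the other lists that fell it lay before 4 of 9 fatty acid, 4 of 14 lysosomal and 5 of 13 immediate early genes. Among those that rose it lay before 8 of 15 interferon-stimulated genes and 2 of 15 integrins and laminins. A form of the sterol element, TCACNCCAC on either strand, was found before 1 of the 16 sterol genes and 0.8% of tested genes. A match describes the letters of a window and shows neither a bound site nor a cause.

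Fatty acid synthesis followed the sterol genes: of 12 genes tested, 10 fell and 1 rose, with a median of -0.51. SCD, stearoyl-CoA desaturase (chr10:100347233-100364826, plus strand), held 1075, 963 and 1040 CPM at P11 and 455, 466 and 444 CPM at P24, with no overlap (log2 -1.17 ± 0.06 SE; adjusted p = 5.4e-15). FADS1, a desaturase of polyunsaturated fatty acids, fell from 139 ± 12 to 82.7 ± 2.4 CPM, and SREBF1, the transcription factor of the lipogenic genes, from 75.2 ± 2.0 to 46.5 ± 3.0 CPM. MicroRNA genes lie on the strand of FADS1 and of SREBF1. Without same-strand overlaps, 6 members fell.

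Lysosomal genes, which encode acid hydrolases, membrane proteins and the proton pump, fell as well. Of 48 tested, 25 fell and 6 rose, with a median of -0.19. CTSK, the collagen-degrading cathepsin K, held 723, 658 and 749 CPM at P11 and 314, 337 and 280 CPM at P24, a 2.29-fold fall (log2 -1.20 ± 0.06 SE; adjusted p = 1.3e-14). NPC1, which exports cholesterol from the lysosome, held 191, 179 and 188 CPM at P11 and 84.2, 89.9 and 86.8 CPM at P24. In both genes every P24 library lay under every P11 library. TFEB, a transcription factor of lysosomal genes, rose instead, from 3.36 ± 0.24 to 6.78 ± 0.63 CPM. The test of the difference between the interval to P30 and this one called 25 members more positive and 5 more negative. Over all genes the shares were 14.6% and 18.3%. That test shares the P24 libraries, and it also calls a member more positive where it only fell less. An E-box, CACGTG, which reads the same on both strands, lay before 6 of the 14 lysosomal genes that fell and have an entry, against 8.6% of tested genes.

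The secreted genes went both ways. Of 42 cytokine and growth factor genes tested, 19 rose and 10 fell, with a median of 0.19. At 10 CPM or more the counts were 12 and 6. The largest fold changes were of barely detected genes. CCL5, a chemokine, had 2 reads in the P11 libraries together and 40 in the P24 libraries (0.533, 0.767 and 0.775 CPM), and CXCL10 had 1 and 17. ANGPTL4, an angiopoietin-like factor, rose from 0.231 ± 0.24 to 1.07 ± 0.42 CPM. IL11, a fibroblast cytokine named after its value was seen, rose from 3.86 ± 0.74 to 9.99 ± 3.1 CPM. CXCL12, a stromal chemokine named in the same way, held 167, 172 and 162 CPM at P11 and 80.9, 75 and 90.2 CPM at P24, a 2.04-fold fall.

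Of 30 secreted proteases and inhibitors, 12 rose and 13 fell, with a median of 0.05. PAPPA2, a protease of IGF-binding proteins, PLAT and TIMP3 showed the largest changes, all upward. PAPPA2 rose from 0.129 ± 0.075 to 1.01 ± 0.25 CPM. MMP2 and MMP14, a gelatinase and its membrane-bound activator, were named after their values were seen and fell with MMP1, from 1910 ± 84 to 1181 ± 58 CPM and from 580 ± 3.2 to 400.0 ± 15 CPM. MMP2 has a same-strand overlap.

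IGF-binding proteins hold insulin-like growth factors outside the cell. Of 6 genes tested, 5 rose and 0 fell, with a median of 0.86. IGFBP5 (chr2:216672105-216695549, minus strand) held 3041, 2994 and 2976 CPM at P11 and 8074, 7844 and 8494 CPM at P24, a 2.71-fold rise with no overlap (log2 1.44 ± 0.05 SE; adjusted p = 3.4e-17). IGFBP3 held 164, 197 and 188 CPM at P11 and 486, 485 and 460 CPM at P24. IGFBP2 rose from 15.2 ± 1.1 to 34.4 ± 2.3 CPM. IGFBP4 was at 932 ± 53 and 966 ± 14 CPM and did not pass (adjusted p = 0.43).

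Of 29 TGF-beta superfamily ligands, antagonists and ID genes, 12 rose and 7 fell, with a median of 0.25. ID1, a target of BMP signals that blocks differentiation factors, held 42.8, 35.8 and 43.6 CPM at P11 and 111, 97.1 and 166 CPM at P24, a 3.08-fold rise. INHBB, an activin subunit, rose from 0.223 ± 0.040 to 1.12 ± 0.17 CPM, and GDF5, a growth factor of joints with a microRNA gene on its strand, fell from 10.6 ± 0.28 to 4.04 ± 1.1 CPM. FST, which blocks activin, fell as given above.

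WNT signals direct growth and cell fate. Of 19 WNT ligands and antagonists tested, 6 rose and 4 fell (median 0.14), and the largest changes were falls at low levels. WNT16, a ligand, fell from 0.976 ± 0.17 to 0.304 ± 0.067 CPM, and FRZB, a secreted antagonist, from 4.23 ± 0.32 to 1.66 ± 0.15 CPM. RSPO3, which strengthens WNT signals, was at 0.514 ± 0.23 and 0.10 ± 0.088 CPM and lost its call without P11 replicate 1 (adjusted p = 0.076) or P24 replicate 1 (0.06).

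NOTCH receptors are activated by ligands on neighbouring cells. Of 13 genes of the pathway, 4 rose and 0 fell, with a median of 0.40. NOTCH3, a receptor, held 16.7, 17.6 and 17.6 CPM at P11 and 34.2, 37.5 and 40.2 CPM at P24, and LFNG, which glycosylates the receptors, rose from 1.73 ± 0.22 to 6.01 ± 0.30 CPM. The ligand DLL4 was at 6.18, 5.50 and 6.66 CPM and at 8.58, 7.28 and 14.3 CPM, and its call was lost without P24 replicate 3 (adjusted p = 0.066). MicroRNA genes lie on the strand of NOTCH3 and of LFNG.

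HOX and related genes record where in the body a fibroblast came from. Of 25 tested, 12 rose and 5 fell, with a median of 0.29. EMX2 rose from 1.68 ± 0.08 to 4.80 ± 0.26 CPM, HOXC11 from 4.44 ± 0.11 to 9.35 ± 0.65 CPM and HOXC13 from 0.620 ± 0.052 to 1.46 ± 0.13 CPM. In each of them the groups were separate. HOXC11 lies opposite the antisense transcript HOTAIR.

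Interferon-stimulated genes, the antiviral effectors switched on by interferon, rose more often than they fell but varied between replicates. Of 52 tested, 20 rose and 1 fell, with a median of 0.30. RSAD2, viperin, held 1.13, 7.79 and 2.61 CPM at P11 and 18.8, 9.47 and 21.5 CPM at P24. P11 replicate 2 was high and P24 replicate 2 low, and the groups barely stayed apart. OASL rose from 0.822 ± 0.35 to 2.75 ± 0.20 CPM. CXCL10 had 1 read at P11 and 17 at P24 and lost its call without P24 replicate 3 (adjusted p = 0.078). The list's median log2 level relative to P11 was -0.42, 0.43 and -0.03 in the P11 libraries and 0.42, -0.07 and 0.63 in the P24 libraries, so the groups overlapped. The number of genes that rose depended on these libraries. It was 37 without P11 replicate 2 and 32 without P24 replicate 2, but 9 without P11 replicate 1 and 8 without P24 replicate 3. DESeq2 called 11, and the fit without a count filter called 33. From P3 to P11, 32 members had risen and 0 had fallen.

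A core of the interferon-stimulated response element, 2 copies of GAAA with any 2 bases between them, on either strand, lay in the 250 bases before the start of 7 of the 15 listed genes that rose and have an entry, against 2.6% of tested genes and 3.1% of all promoters. The 5 stretches that avoid annotated exons are shown with the element in capitals, since these genes rose and carry it. No other searched motif overlaps the capitals, and the stretch of HERC5 also holds the antioxidant element TGACNNNGC, read on the other strand. A further copy of the same core in HERC5 begins with the last TTTC of the capitals and runs on in small letters.
CXCL10 (chr4:76023684-76023743, minus strand): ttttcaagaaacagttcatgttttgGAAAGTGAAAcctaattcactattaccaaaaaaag
HERC5 (chr4:88456969-88457028, plus strand): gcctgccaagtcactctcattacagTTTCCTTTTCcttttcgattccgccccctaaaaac
IFI44 (chr1:78649729-78649788, plus strand): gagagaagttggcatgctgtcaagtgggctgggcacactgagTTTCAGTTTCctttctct
IFI6 (chr1:27672314-27672373, minus strand): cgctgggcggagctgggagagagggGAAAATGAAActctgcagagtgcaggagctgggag
SAMD9 (chr7:93118081-93118140, minus strand): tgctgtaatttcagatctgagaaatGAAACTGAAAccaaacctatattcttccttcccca

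HERC5, a ligase for the ubiquitin-like protein ISG15, held 4.84, 12.6 and 5.95 CPM at P11 and 20.7, 12.3 and 19.2 CPM at P24. IFI44 held 26.4, 64.4 and 40.3 CPM and 73.3, 51.4 and 86.7 CPM, and SAMD9, an antiviral factor, 107, 158 and 128 CPM and 203, 153 and 208 CPM. IFI6, with a same-strand overlap, held 60.7, 188 and 96.7 CPM and 160, 128 and 228 CPM. In each of these genes P11 replicate 2 lay above P24 replicate 2, and the groups overlapped. GBP2, a neighbour of GBP4 looked up after its value was seen, rose from 9.95 ± 1.8 to 15 ± 1.1 CPM, and GBP1 did not pass at 72.3 ± 14 and 78.6 ± 9.6 CPM.

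Immediate early genes, which respond within minutes to serum, growth factors or stress, fell. Of 29 tested, 14 fell and 1 rose, with a median of -0.32. EGR1, a zinc finger factor, held 69.5, 70.5 and 65.9 CPM at P11 and 21.1, 19.6 and 29.9 CPM at P24 (log2 -1.53 ± 0.31 SE; adjusted p = 0.00032). KLF4, another zinc finger factor, held 48.8, 47.4 and 51.3 CPM at P11 and 18.0, 19.8 and 18.8 CPM at P24. The groups were separate for both. FOS, a component of AP-1, was at 4.31 ± 1.1 and 0.634 ± 0.036 CPM, and its call (adjusted p = 0.038) was lost on leaving out any 1 of the 6 libraries except P11 replicate 3 (adjusted p 0.056 to 0.11). The next interval differed in the positive direction for 19 of the 29 and in the negative for 0, against 14.6% and 18.3% of all genes. This difference shares the P24 libraries with the comparison here. Times of harvest or medium change are not given in the labels, and their part was not tested.

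Of 8 tested genes of the aryl hydrocarbon receptor list, which covers the receptor for dioxin-like ligands and its targets, 5 fell and 1 rose, with a median of -0.31. Without same-strand overlaps, 2 fell. CYP1B1 led, followed by TIPARP, a repressor of the receptor, from 81.5 ± 2.1 to 47.7 ± 5.3 CPM, and NQO1, a quinone reductase, which held 142, 158 and 148 CPM at P11 and 96.0, 88.6 and 90.8 CPM at P24. In the next interval, which shares the P24 libraries, 6 of the 8 moved in a more positive direction than here and 0 in a more negative one. Over all genes the shares were 14.6% and 18.3%. The core of the receptor's element, GCGTG on either strand, lies before 44.6% of tested genes. It lay before 13 of 16 sterol genes that fell (81.2%), 10 of 14 lysosomal genes that fell (71.4%) and 3 of 15 interferon-stimulated genes that rose (20%). Of the other lists searched, the share was 57.1% for G2 and M phase, 55.6% for fatty acid, 53.8% for immediate early and 31.2% for S phase genes that fell. For integrins and laminins that rose it was 26.7%. The receptor's own targets were not counted.

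The remaining stress lists were mixed. Of 27 NRF2 targets, which defend against oxidants, 7 rose and 7 fell (median 0.03). FTL, ferritin light chain, fell from 727 ± 54 to 435 ± 15 CPM, with NQO1, while GCLM, which makes the precursor of glutathione, rose from 33.8 ± 2.9 to 49.8 ± 3.9 CPM. The list for unfolded protein and integrated stress signals had 38 genes tested, with 9 rises and 11 falls (median -0.03), with 7 falls without P11 replicate 2. PPP1R15A, which reverses the translation block, held 263, 252 and 256 CPM at P11 and 127, 145 and 134 CPM at P24. The amino acid transporter subunit SLC3A2 fell from 67.9 ± 3.0 to 48.2 ± 3.6 CPM, and PSAT1, of serine synthesis, rose from 17.9 ± 0.79 to 31.5 ± 3.8 CPM. Of 29 glycolysis and hypoxia genes, 9 rose and 6 fell (median 0.05), or 4 and 2 without same-strand overlaps. CA12, a carbonic anhydrase, fell from 42.6 ± 1.1 to 19 ± 0.83 CPM and ENO2, an enolase with a same-strand overlap, from 17.6 ± 0.75 to 9.24 ± 0.87 CPM. ANKRD37 rose from 0.834 ± 0.13 to 1.87 ± 0.20 CPM.

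Ribosomal protein mRNAs fell by a small and even amount. Of 75 tested, 55 fell and 0 rose, with a median of -0.18. The 3 largest falls were of RPS28 (26.1 ± 2.5 to 19.8 ± 1.8 CPM), RPL38 (84.1 ± 6.0 to 64.1 ± 8.2 CPM) and RPS18 (342 ± 1.8 to 267 ± 40 CPM). These genes have many processed pseudogenes and snoRNA genes, and 30 fell when members with a same-strand overlap were left untested. In the next interval 4 rose and 6 fell, with a median of 0.01. Of 13 mitochondrially encoded mRNAs, 0 rose and 2 fell, beside 19.5% and 19.1% of all genes tested. MT-ND3, a subunit of complex I, fell from 436 ± 51 to 319 ± 34 CPM, and MT-ND1 lost its call without P11 replicate 1, P11 replicate 3 or P24 replicate 1 (adjusted p 0.051 to 0.083).

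Replication-dependent histone genes normally give mRNA without a poly(A) tail, so poly(A)-selected libraries capture only a part of it. Of 23 tested of the 62 listed, 12 rose and 0 fell, with a median of 0.75. Only 6 rose among genes of 10 CPM or more. H2BC4 rose from 3.72 ± 0.17 to 9.11 ± 1.6 CPM and H2BC8 from 0.751 ± 0.078 to 1.56 ± 0.28 CPM. H2BC6 had overlapping groups and lost its call without any 1 of 4 libraries (adjusted p 0.071 to 0.091). Near-identical copies make single histone genes uncertain. Of 33 nuclear envelope and chromatin proteins, 4 rose and 13 fell (median -0.10). HMGA2, an architectural protein of dividing cells, fell from 347 ± 7.5 to 246 ± 23 CPM and MACROH2A2, a histone variant, rose from 12.4 ± 0.82 to 17.2 ± 0.50 CPM.

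Of 15 snoRNA host genes, 6 rose and 0 fell (median 0.18), but all 6 overlap other genes on their strand. They include SNHG19 (3.36 ± 0.27 to 5.24 ± 0.42 CPM), SNHG7 (10.1 ± 0.93 to 13.8 ± 0.99 CPM) and SNHG30, whose call was lost without replicate 2 or 3 of either group (adjusted p 0.083 to 0.11). Of 14 telomere and telomerase genes, 1 rose and 3 fell, beside 19.5% and 19.1% of all genes tested. The shelterin genes POT1 and ACD fell from 16.3 ± 0.46 to 13 ± 0.36 CPM and from 6.27 ± 0.57 to 4.68 ± 0.33 CPM. RTEL1, a helicase in a readthrough locus, was at 1.27 ± 0.24 and 0.630 ± 0.17 CPM and lost its call without P24 replicate 2 (adjusted p = 0.056).

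The cells kept a fibroblast profile at both passages. Of 15 fibroblast markers 8 rose and 4 fell, and their summed level was 28830 to 29670 CPM in the P11 libraries and 35570 to 37630 CPM in the P24 libraries. Among 15 keratinocyte markers 9 were tested, and 6 rose and 1 fell, but the defining keratins KRT5 and KRT1 had 0 reads and KRT14 had 1 read in each group. Their sum, 551.3 to 555.6 CPM at P11 and 642.8 to 673.8 CPM at P24, came mostly from DSP and PERP. DSG3, a desmoglein, had 0 reads at P11 and 16 at P24, EPCAM fell from 1.3 ± 0.14 to 0.462 ± 0.092 CPM, and KRT17 rose from 4.06 ± 0.38 to 7.55 ± 0.81 CPM.

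Of the leukocyte markers, LYZ, CD3E, TYROBP and ITGAM had 0 reads in both groups, and the sum of all 9 was at most 2.872 CPM. Of the melanocyte and Schwann cell markers, TYR, SOX10 and S100B had 0 reads, and MITF rose from 29.7 ± 2.4 to 43.0 ± 3.6 CPM. The sum of 9 endothelial markers was 4.834 to 5.703 CPM at P11 and 3.255 to 4.162 CPM at P24, with TEK going from 3.64 ± 0.50 to 2.40 ± 0.40 CPM. Of 8 tested pericyte and smooth muscle markers 3 rose and 2 fell, among them ABCC9 (23.5 ± 1.7 to 43.6 ± 1.5 CPM) and MCAM (11.2 ± 0.22 to 5.83 ± 0.77 CPM). The adipocyte regulator PPARG fell from 41.1 ± 1.4 to 23.0 ± 0.50 CPM, with 1 ADIPOQ read in the 6 libraries. The part of other cell types in any of the changes above was not tested.

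The 3 comparisons below share no library with P11 or P24 and give the values of the same genes there. P30 against P3 spans the interval from P11 to P24, so its change includes the change described here. Agreement in direction at P30 against P3 is thus built in in part and gives no separate support. At P30 against P3, 1687 of the 3050 genes that rose at P24 were higher (55.3%, against 31% of all genes tested), and 531 were lower (17.4%). Of the 2989 that fell, 1779 were lower (59.5%, against 33.6% of all genes) and 500 were higher (16.7%). The 1687 made up 34.8% of all genes higher at P30, and the 1779 made up 33.9% of all genes lower. Genes that rose and genes that fell at P24 were 19.5% and 19.1% of all genes tested. The last interval, P33 against P30, separated the 2 groups less: 34.1% of the genes that rose were higher there and 29.9% lower, against 27.8% and 25.7% of all genes. Of the genes that fell, 25.8% were higher and 34.1% lower. For changes of at least 2-fold the picture differed: 48% of the 661 that rose were higher at P33 and 17.1% lower, while of the 259 that fell 31.3% were higher and 18.9% lower. At P30 against P3, 64.4% of those 661 were higher and 59.5% of those 259 were lower.

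In the DOX comparison, 32.9% of the 2712 genes that rose at P24 and were tested in both fits were higher with DOX, against 17.2% of the 13650 genes tested in both, and 13.9% were lower, against 19%. Of the 2890 that fell, 36.4% were lower and 9.2% higher. The genes that rose at P24 and with DOX made up 37.9% of all that rose with DOX, where genes that rose at P24 were 2712 of the 13650 tested. Of the genes up at least 2-fold at P24, 48.5% of the 398 tested were higher with DOX, and of those down at least 2-fold, 44.3% of the 203 tested were lower. PURPL was higher with DOX by 2.79 ± 0.10 (SE) on the log2 scale, and ABCB1 by 1.92 ± 0.39. Of the other largest protein-coding rises named above, JAM2, RUNDC3B, GJA5, SLC38A11, TIMP3 and RDH10 were also higher with DOX. GBP4 (-1.52 ± 0.21), ZNF704 (-0.83 ± 0.22) and A2M (-0.48 ± 0.07) were lower. CPE, GNA14, HPSE2 and PLAT did not pass, and DYNC1I1 was not tested with DOX. The cell cycle lists differed in size between the comparisons: the G2 and M phase median was -1.77 with DOX and -0.14 here. The sterol list fell in both, with a median of -0.48 and 20 of 26 members lower with DOX. Interferon-stimulated genes went the other way with DOX, with 40 of 50 lower and 2 higher.

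**Figure D5:**
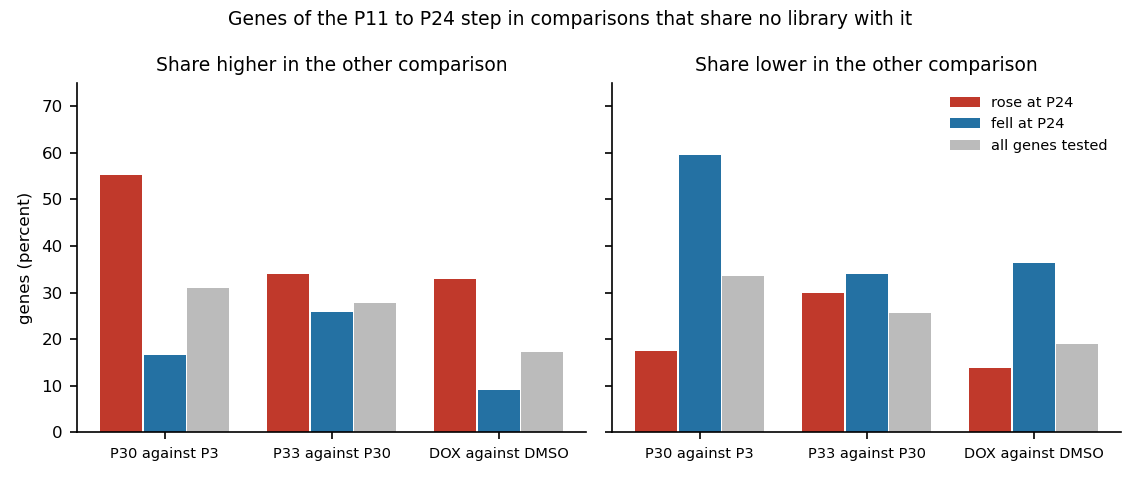
Share of the genes that rose (red) or fell (blue) at P24, and of all genes tested (grey), that were higher (left) or lower (right) in 3 comparisons that share no library with P11 or P24 (bars, percent, from 0). P30 against P3 spans the interval from P11 to P24, so part of the agreement there is built in. Genes that rose at P24 were higher at P30 against P3 in 55.3% of cases and with DOX in 32.9%, above the grey bars at 31% and 17.2%.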

How the data were processed

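The deposited table holds raw read counts per gene for 21 libraries, made by the authors from poly(A)-selected, randomly primed RNA with 18 cycles of amplification, per the labels' protocols. The submitters' processing notes name FastQC 0.11.9, cutadapt 3.3, HISAT2 2.1.0, SAMtools 1.11, featureCounts 2.0.1 and DESeq2 1.34.0, with hg38 and GRCh38.p13. No source used here gives their options.

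The counts of the 15 passage libraries were tested with edgeR 4.0.16 in R 4.3.3 (quasi-likelihood fit, 1 mean per group, filterByExpr with a minimum count of 10, trimmed mean of M-values factors of 0.933 to 1.074, 10 residual degrees of freedom, biological coefficient of variation 5.04%). DOX and DMSO were fitted apart (14826 genes, 4 residual degrees of freedom, coefficient of variation 6.43%). Adjustment was by Benjamini-Hochberg over all genes of a fit, with a threshold of 0.05. The SE of a log2 fold change is its size divided by the square root of the F statistic. The steps were tested on simulated data.

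Genes were named by a rule. It took the 10 largest rises and falls among protein-coding genes, the 3 largest among long noncoding genes (both reaching 5 CPM in the higher group) and the 5 largest among genes of at least 100 CPM, all with separate groups. It added the core senescence panel and up to 3 members of each list with the largest change. The members and lists were chosen with earlier results of these data known. Promoters (250 bases before the start, the first listed per gene) are from RefSeq, GRCh38.p14. Alternatives covered scaling, filters, DESeq2 1.42.0, the libraries fitted, a replicate term, same-strand overlaps and leaving out each library. No 2 libraries agreed within counting noise. Results for some genes of the lists are not reported here.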

Additional observations from a re-analysis of the deposited data

Results flagged for a closer look

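The results in this section stand out because the change from P30 to P33 went the opposite way from the change from P11 to P24. Named genes were kept where both changes passed, in opposite directions, and their difference passed an edgeR test as well. The sign of the difference was fixed by that choice, so its test gives no separate support. Across all genes tested, which were not chosen in this way, 22.2% had a more positive and 22.4% a more negative last interval. Each value is the log2 change from P30 to P33 minus that from P11 to P24.

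Among genes that rose at P24, the difference was -5.02 for the protease trap A2M, which held 430 ± 29 CPM at P30 and 65.4 ± 8.7 CPM at P33. It was -3.81 for GBP4 (17.1 ± 3.5 to 10.6 ± 0.42 CPM), -2.68 for SLC38A11 and -2.21 for RDH10. For RB1 it was -0.38.

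Among genes that fell, the difference was 5.13 for BAALC (0.344 ± 0.13 to 2.86 ± 0.45 CPM) and 3.80 for CYP1B1, which stood at 7.90 ± 0.53 CPM at P30 and 18.7 ± 2.8 CPM at P33. It was 2.97 for PRKG2, 2.83 for the collagenase MMP1 (129 ± 9.3 to 291 ± 30 CPM) and 2.49 for NPTX1. The noncoding genes ZFPM2-AS1 and GDNF-AS1 had 2.58 and 2.23. Of the senescence panel, IL6 had 2.89 (2.34 ± 0.85 to 7.11 ± 1.7 CPM) and HMGB2 1.09.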

How the results depend on the processing

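Of 2095 values of the 146 genes named by the rule under 15 alternatives, 2032 kept their direction and their side of the threshold, 48 lost the call, 1 gained it and 14 turned. The turned values belong to genes that did not pass. CDKN2B gave -0.0095 with upper quartile scaling, -0.0007 without a filter, -0.0139 with all 21 libraries and -0.1122 to 0.1025 with 1 library left out. HMGB1 gave -0.0094, -0.0011, -0.0142 and -0.0379 to 0.0277. Leaving out 1 library gave -0.1026 to 0.0185 for MKI67, -0.0850 to 0.2546 for GDF15, and -0.9592 to 0.5286 for CXCL8. The 6039 genes called became 4015 without same-strand overlaps, with 1968 lower and 165 at least 2-fold lower, since fewer genes were tested. With a 10 CPM filter 186 were at least 2-fold higher and 55 lower. Leaving out 1 library called 4995 to 5584 genes and DESeq2 5401. Without same-strand overlaps 6 ABC transporter falls became 3, 13 nuclear envelope falls became 7, and 0 snoRNA hosts rose. Members with such an overlap were taken out before the fit, so fewer were tested. The 10 CPM filter likewise leaves fewer members to test. The 5 HOX falls became 3 without P11 replicate 2, and 6 keratinocyte marker rises became 3 at 10 CPM.

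Samples with the same replicate number did not deviate together (correlations -0.048, -0.265 and -0.051 over 10484 genes). Samples with different numbers gave -0.194 to 0.242, so values of this size cannot show whether the numbers pair libraries. With a replicate block 5965 genes were called. With 3 libraries a group, and 1 to 3 reads for the weakest genes, small changes of low genes were not detectable.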
